A study of Mus musculus with 30 samples.

Results

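The mitochondrially encoded genes of the mouse were followed through 30 RNA-seq libraries of muscle satellite cells. A gene was a member when its symbol in the count tables starts with mt-. The rule used no measured value and gave 37 members of the 55450 gene rows in 2 of the 3 tables and of the 55335 rows in the third. They are 13 protein-coding genes, 2 ribosomal RNA (rRNA) genes and 22 transfer RNA (tRNA) genes. Every member had a count in at least 1 library, and all but mt-Th and mt-Ts2 had a count in every library.

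Satellite cells are the stem cells of skeletal muscle. They came from C57BL/6 mice, from hind limb muscle. In the injured groups the muscle had been damaged with barium chloride (BaCl2). The mice were perfused with a fixative, paraformaldehyde (PFA), before the cells were isolated. Each of the 15 groups holds 2 libraries. The first table has cells with no injury (uninjured) and cells taken 0.5, 1, 2, 4, 8, 16, 32 and 60 h after it. The second has cells taken 7, 14 and 28 days after injury. The third has old satellite cells: oQSC with no injury, oASC at 2.5 days after injury, and oFISC, which is labelled both as injured and as freshly isolated, so that the state of these cells is uncertain. The other 12 groups carry no age and are called younger here only to set them apart. The protocol text, fixation included, is the same for all samples. The labels do not say that the libraries of a group came from separate animals, and p-values therefore cover only the spread between these samples, which may be technical.

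The mitochondrial genome is copied into long RNAs from both strands, from which tRNAs are cut out so that the rRNAs and most messenger RNAs (mRNAs) are released. The protein-coding genes specify the core membrane subunits of respiratory complexes I, III and IV and of ATP synthase (complex V), and the nucleus supplies the other subunits. The 2 rRNAs build the mitochondrial ribosome. Quiescent satellite cells are known for a low mitochondrial content that grows when they are activated.

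Where the members lie limits what their counts can tell. On the mm10 (GRCm38) mitochondrial chromosome, 12 mRNAs, both rRNAs and 14 tRNAs lie on the plus strand, and mt-Nd6 and 8 tRNAs on the minus strand. All 37 have the same start and end in GENCODE M21 and RefSeq. Copies of 7 of the genes from mt-Co1 to mt-Nd4 also lie in the nucleus, on chromosome 1 (minus strand, 24611535 to 24616197), as pseudogene models. Of these, 5 match their mitochondrial gene over the aligned bases with no mismatch: Gm10925 (mt-Atp6), Gm28661 (mt-Co2), Gm28437 (mt-Co3), Gm10222 (mt-Nd4l) and Gm28439, which covers 876 of the 1378 bases of mt-Nd4. Gm28438 (mt-Nd3) and Gm29216, which covers 483 of the 1545 bases of mt-Co1, differ at 1 base each. The pair below, from the GENCODE M21 transcripts, is shown because mt-Nd3 had the largest fold change of the protein-coding genes in the old cells. The capitals mark its single difference, T3C, counted from the first base of mt-Nd3:
mt-Nd3, first 120 bases: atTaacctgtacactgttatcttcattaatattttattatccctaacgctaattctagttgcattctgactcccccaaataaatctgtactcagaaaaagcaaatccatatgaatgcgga
Gm28438, first 120 bases: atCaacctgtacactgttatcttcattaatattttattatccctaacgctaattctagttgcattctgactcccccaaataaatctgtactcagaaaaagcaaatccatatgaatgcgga

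The whole-gene models drew close to as many counts as their mitochondrial genes, and the partial ones fewer. The median over the 30 libraries was 1.01 counts on Gm10925 per count on mt-Atp6, 0.980 on Gm28661 per count on mt-Co2, 1.01 on Gm28437 per count on mt-Co3 and 0.990 on Gm10222 per count on mt-Nd4l. For the partial copies it was 0.287 (Gm28439, mt-Nd4) and 0.294 (Gm29216, mt-Co1), and for Gm28438 with mt-Nd3 it was 0.869. The ratios were not the same in all groups, and the part of this in the results was not tested. Gm10925 was at 0.999 and 1.01 per count on mt-Atp6 in uninjured cells. At 7 days it was at 0.831 and 0.88, and at 28 days at 0.823 and 0.876. Gm10222 was at 0.98 and 1.01 per count on mt-Nd4l in uninjured cells. At 7 days it was at 0.926 and 0.844, and at 28 days at 0.815 and 0.808. For Gm28661 with mt-Co2 the ratio was 0.939 and 0.861 at 7 days and 0.868 and 0.827 at 28 days. Gm29216 was at 0.325 and 0.318 per count on mt-Co1 in oQSC, 0.185 and 0.179 in oFISC and 0.141 and 0.16 in oASC cells, Gm28439 at 0.176 and 0.19 per count on mt-Nd4 in oQSC and 0.42 and 0.405 at 60 h, and Gm28438 at 0.66 and 0.693 per count on mt-Nd3 in oFISC. After correction for length, the median was 0.922 for Gm29216 but 0.451 for Gm28439, although the latter has no mismatch. Within the aligned stretches, reads of these 7 genes and of their copies cannot be told apart by sequence unless they cover 1 of the 2 differing bases, so the values of mt-Co1, mt-Co2, mt-Co3, mt-Atp6, mt-Nd3, mt-Nd4l and mt-Nd4 are uncertain to that extent. The other 6 protein-coding genes, mt-Nd1, mt-Nd2, mt-Nd5, mt-Nd6, mt-Cytb and mt-Atp8, matched no annotated pseudogene model that closely. Only annotated models were searched. The last bases of mt-Atp8 lie within Gm10925, and the stretch between Gm10925 (end 24614651) and Gm28661 (start 24614885) was not searched, so a copy of the rest of mt-Atp8 there was not tested. Members also overlap each other. The last 43 bases of mt-Atp8 are the first of mt-Atp6, in capitals here:
mt-Atp8: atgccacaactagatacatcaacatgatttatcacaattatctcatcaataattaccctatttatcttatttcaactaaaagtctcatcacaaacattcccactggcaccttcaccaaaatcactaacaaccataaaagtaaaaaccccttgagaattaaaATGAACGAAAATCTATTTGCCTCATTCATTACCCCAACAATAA
mt-Ts1, a serine tRNA on the minus strand, overlaps the end of mt-Co1 by 3 bases. The next line gives the last 40 bases of mt-Co1 on the plus strand and, in capitals, the plus-strand bases opposite mt-Ts1 that adjoin them. It is shown because mt-Ts1 held 60.1% of all counts on tRNA genes. The counting is not stated to use strand, so a read that runs past mt-Co1 cannot be told from one of mt-Ts1:
mt-Co1 end: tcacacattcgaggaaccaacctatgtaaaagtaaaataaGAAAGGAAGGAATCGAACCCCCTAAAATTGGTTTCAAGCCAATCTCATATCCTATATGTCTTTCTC

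**Figure D1:**
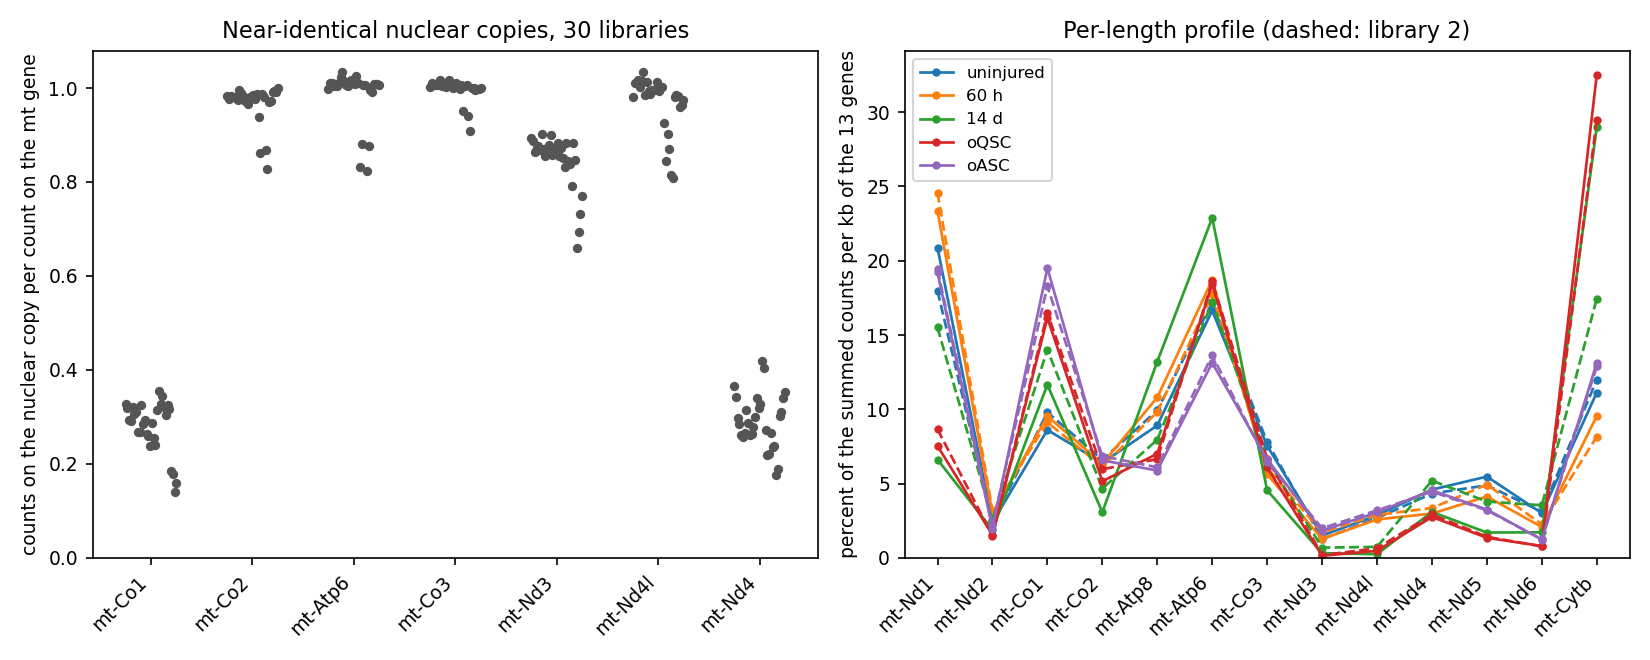
Left, counts on each near-identical nuclear copy per count on its mitochondrial gene, with 1 point per library (30 per gene). Right, share of each protein-coding gene in the summed counts per kb of the 13 genes, in the order of the genome, for both libraries (solid and dashed) of 5 groups. Gm10925, Gm28661, Gm28437 and Gm10222 have medians of 0.980 to 1.01 and Gm28438 one of 0.869, the partial copies spread from 0.141 to 0.420, and the profiles part most at mt-Nd1 and mt-Cytb.

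Several facts of the libraries stand beside the results. Library totals ran from 9182407 to 57441790 counts, and the protein-coding members held counts in every library. The lowest count of a protein-coding gene in a library was 292 (mt-Nd3). Gene models that overlap nuclear rRNA held, in percent of a library's counts, 46.8 and 35% before injury, 3.58 to 9.81% from 0.5 to 32 h, 26.9 and 29.4% at 60 h, 1.33 to 16.3% from 7 to 28 days, 0.323 and 0.488% in oQSC, 1.5 and 4.04% in oFISC and 13.9 and 13.2% in oASC cells. Models of satellite repeats held 21.1 and 18.8% (oQSC), 61.3 and 26.6% (oFISC) and 15.4 and 2.62% (28 days), 2.55% in 2 h library 1 and under 1% in the other libraries. Pax7, which marks satellite cells, was found in every library. Its level in CPM (counts-per-million, here after TMM scaling of all 30 libraries) ran from 10.2 to 1745. It was at 1745 and 1554 CPM in uninjured but at 84.5 and 72.7 CPM in oQSC cells, in which Myod1, a factor of activated satellite cells, was at 1069 and 1535 CPM against 41.4 and 50.8 CPM. The libraries of 0.5, 1, 2 and 4 h lay far apart within their groups in Pax7 and Myod1. Of the markers of other cell types, macrophage markers summed to 3.44 to 5.14 CPM in uninjured cells, 12.6 to 469 CPM from 0.5 to 60 h and 5.35 to 26.5 CPM later. Myofibre markers, from the fibres themselves, summed to 253 to 375, 52.2 to 485 and 157 to 633 CPM in the same order. In the old cells these sums were 68.6 to 81.5 and 207 to 243 CPM in oQSC, 21.3 to 36.9 and 105 to 990.3 CPM in oFISC, and 75 to 95.8 and 375 to 407 CPM in oASC. The macrophage list has 10 genes, of which 0 to 7 were at 0 in a library, and the myofibre list 16 genes, of which 0 to 6 were at 0 in a library. Endothelial markers summed to 37.3 to 73.8 CPM in uninjured, 125 to 159 in oQSC and 23.1 to 30.2 in oASC cells, and erythrocyte markers to 60.5 to 68.2, 226 to 241 and 6.94 to 8.38 CPM. At 14 days pericyte and smooth muscle markers summed to 475 to 862 CPM against 117 to 182 in uninjured cells, and fibroblast markers to 1993 to 2684 against 1186 to 1349 CPM. Neutrophil and lymphocyte markers summed to at most 55.3 CPM in any library. Satellite cell markers, 12 genes with none at 0, summed to 6738 to 6974 CPM in uninjured, 23653 to 26685 in oQSC, 9607 to 10207 in oFISC and 3645 to 3657 CPM in oASC cells. The part of these in the results below was not tested. In bulk RNA, less RNA per cell and fewer cells that hold it cannot be told apart.

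Protein-coding members took a small part of all counts, most at 14 days after injury and least in old uninjured cells. Their share of all counts was 2.73 and 2.46% in the uninjured libraries. From 0.5 to 32 h it was 1.33 to 2.5%, so that 1 h library 1 (2.5%) reached the uninjured range, and at 60 h it was 1.6 and 1.6%. It was 5.2 and 4.15% at 7 days, 8.99 and 7.78% at 14 days and 7.55 and 4.38% at 28 days. All 6 of these libraries lay above all 18 of the time course. In the old cells it was 1.28 and 1.11% (oQSC), 1.05 and 2.24% (oFISC) and 2.49 and 2.72% (oASC), with oFISC library 1 below both oQSC libraries. These shares depend on what else a library holds. Without the nuclear rRNA and satellite models in the total, the uninjured libraries stood at 5.13 and 3.78% and those of 60 h at 2.2 and 2.27%. Both 7 day library 2 (4.27%) and 28 day library 2 (4.79%) then lay between the uninjured libraries, and 7 day library 1 was at 5.36%. On that scale oFISC cells were at 2.83 and 3.24% and oQSC cells at 1.63 and 1.38%, and these groups no longer overlapped.

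The rRNA genes, whose counts lay mainly on the large-subunit gene mt-Rnr2, spanned a wider range than the mRNAs. They made up 4.11 and 3.24% of all counts before injury, 0.721 to 2.24% from 0.5 to 32 h and 1.75 and 2.04% at 60 h. In oQSC cells they were at 0.0727 and 0.0694%, in oFISC 0.364 and 0.862% and in oASC 2.3 and 2.78%. Per count on an mRNA there were 1.51 and 1.32 rRNA counts in uninjured, 0.645 and 0.469 at 8 h, 1.09 and 1.27 at 60 h, 0.404 to 0.763 from 7 to 28 days, 0.0566 and 0.0624 in oQSC, 0.346 and 0.384 in oFISC and 0.925 and 1.02 in oASC cells. The uninjured libraries were the highest of all 30 on this ratio and the oQSC libraries the lowest. Both carry the label of no injury. The nuclear rRNA models were also most abundant in the uninjured and least abundant in the oQSC libraries, and their part in the mitochondrial rRNA values was not tested. The 2 rRNAs did not keep 1 proportion. There were 6.51 and 6.52 counts on mt-Rnr2 per count on mt-Rnr1, the small-subunit gene, at 7 days, 17.3 and 13 in uninjured, 24.2 and 26.1 in oASC and 27 and 37.7 at 60 h, the highest group.

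**Figure D2:**
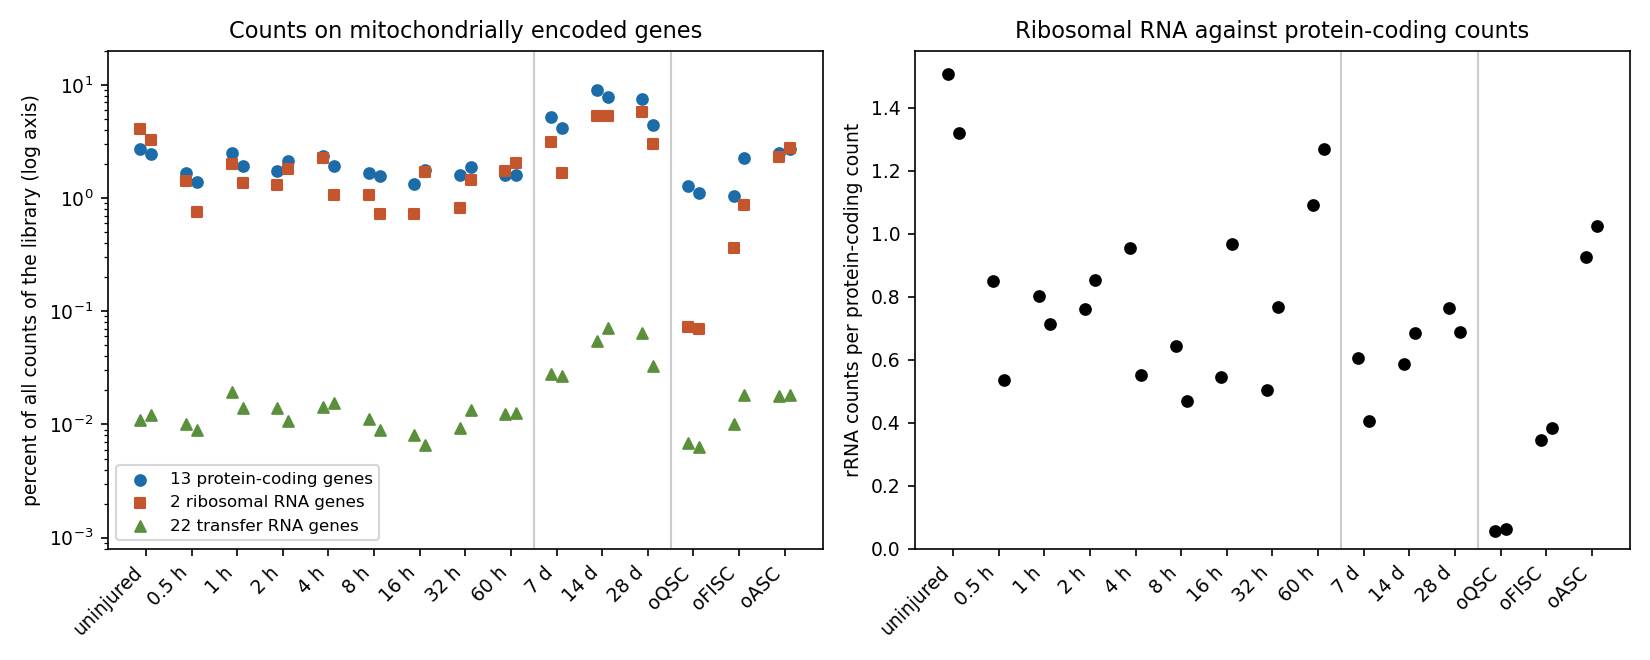
Left, percent of all counts of a library on the protein-coding, rRNA and tRNA members (log axis). Right, counts on the 2 rRNA genes per count on the 13 protein-coding genes. Each point is a library, and the vertical lines part the 3 tables. The 7 to 28 day libraries have the highest protein-coding shares, and the ratio runs from near 0.06 in oQSC to 1.51 in an uninjured library.

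Within the 13 mRNAs the mixture differed between groups. The genes that spanned the widest ranges of share over the 30 libraries were mt-Co1, described next, mt-Cytb, the only subunit of complex III that mitochondria encode, and mt-Nd1, a core subunit of complex I. Here a share is the percent of the counts on the 13 genes. The share of mt-Cytb was 14 and 15.1% in uninjured and 12.3 and 10.4% at 60 h, but 30.2 and 29.8% at 7 days and 37.1 and 33.8% in oQSC. That of mt-Nd1 was 21.9 and 19% in uninjured, 25.2 and 26.3% at 60 h, 6.55 and 6.65% at 7 days and 7.2 and 8.32% in oQSC. Neither gene matched a close nuclear model. The 14 day libraries differed from each other, with mt-Cytb at 36.1 and 20.5% and mt-Nd1 at 6.9 and 15.3%. The 28 day libraries lay close together, at 25.6 and 24.9% (mt-Cytb) and 9.19 and 9.89% (mt-Nd1). Counts on mt-Cytb per count on mt-Nd1 thus ran from 0.489 and 0.397 at 60 h to 5.16 and 4.07 in oQSC and 5.23 and 1.35 at 14 days.

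Other members followed their own course. mt-Nd5, a proton-pumping subunit of complex I, had 10.9 and 9.83% of the 13 genes' counts in uninjured cells and 4.28 to 5.93% in the 14 libraries from 0.5 to 32 h, with no overlap, and was back at 8.49 and 10.1% at 60 h. mt-Co1, the catalytic subunit of complex IV, had 14.6 and 16.7% in uninjured, 18.8 to 22.1% from 0.5 to 8 h, 34.4 and 34.3% in oFISC and 30.2 and 28.7% in oASC cells. The short complex I genes mt-Nd3 and mt-Nd4l were at 0.354 to 0.667% and 0.567 to 0.962% in the time course. They were at 0.12 to 0.25% and 0.0819 to 0.228% from 7 to 28 days and at 0.0507 and 0.067% and 0.142 and 0.194% in oQSC. Both ranges lie below the whole of the time course. oFISC and oASC libraries lay inside it or above it, at 0.433 to 0.708% and 0.845 to 0.966%. mt-Atp8, a small ATP synthase subunit whose gene shares 43 of its 204 bases with mt-Atp6, had 3.15 to 3.76% at 7 days and 2.93 and 1.67% at 14 days. Per length, mt-Atp6, mt-Nd1, mt-Cytb and mt-Co1 were the most abundant and mt-Nd3, mt-Nd4l and mt-Nd6 the least, by the median of their rank over the 30 libraries. In share of the summed counts per kb, mt-Nd1 was at 20.9 and 18% and mt-Cytb at 11.1 and 12% in uninjured cells. In oQSC cells the same measure was 7.54 and 8.66% for mt-Nd1 and 32.5 and 29.5% for mt-Cytb, the reverse order.

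**Figure D3:**
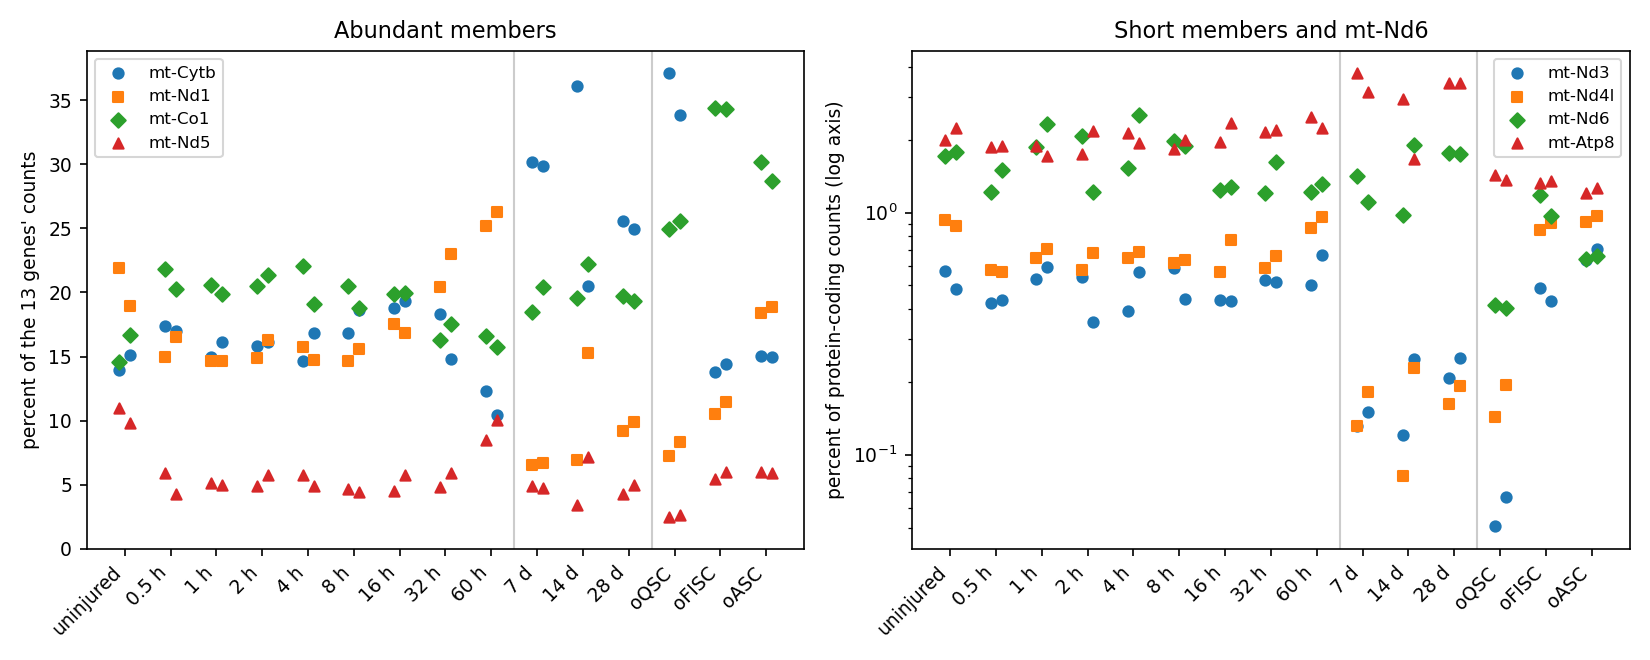
Percent of the counts on the 13 protein-coding genes held by 4 abundant members (left) and by mt-Nd3, mt-Nd4l, mt-Nd6 and mt-Atp8 (right, log axis), with 1 point per library and vertical lines between the 3 tables. mt-Cytb and mt-Nd1 change places between 60 h and 7 days, mt-Nd5 lies lower from 0.5 to 32 h than before injury, and mt-Nd3 and mt-Nd4l are lowest in oQSC and from 7 to 28 days.

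The time course asks how transcripts change as satellite cells leave quiescence. After injury the mitochondrial mRNAs and rRNAs that passed the test were lower than in uninjured cells at every time, and none was higher. The tRNAs are given further on. The 8 times share the 2 uninjured libraries, so their results are not independent. Levels are CPM after TMM scaling of the 18 libraries of this table, and a gene was called at an adjusted p under 0.05 over all genes tested (edgeR). The large-subunit rRNA mt-Rnr2 was at 49200 and 30159 CPM in the uninjured libraries, and after injury its levels were 9822 and 7376 (0.5 h), 10881 and 7652 (8 h), 7279 and 11074 (32 h) and 19233 and 24280 CPM (60 h). All 16 injured libraries were below both uninjured ones. On the log2 scale it fell by 2.21 ± 0.42 (SE, n = 2 per group; adjusted p = 0.00815) at 0.5 h and by 2.11 ± 0.41 (adjusted p = 0.00478) at 32 h. It was also called at 1, 2, 4, 8 and 16 h, where the falls included 1.38 at 1 h and 1.98 at 16 h. At 60 h it was not called (-0.87 ± 0.40, adjusted p = 0.12). The small-subunit rRNA mt-Rnr1 was called at 8, 32 and 60 h, and at 60 h it fell by 1.93 ± 0.60 (adjusted p = 0.0294), from 2589 ± 369 to 678 ± 48.3 CPM (SD). Each mt-Rnr2 call from 0.5 to 32 h was lost without uninjured library 1, and each was also lost without at least 1 of the 2 libraries of that time.

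Of the 13 mRNAs, 9 were called lower at 0.5 h (3.42% of all genes tested were called lower there), 2 at 1 h (3.64%), 3 at 2 h (2.99%), 3 at 4 h (3.80%), 4 at 8 h (14.0%), then 11 at 16 h (8.50%) and 10 at 32 h (6.44%), whereas the last time, 60 h, had 4 (12.8%). None was called higher. Their median log2 fold change at 0.5, 1, 8, 16, 32 and 60 h was -1.08, -0.34, -0.59, -1.03, -0.91 and -0.64. Over all genes tested it was 0.24, 0.16, 0.00, 0.11, 0.25 and 0.00 at the same times. Over all 9 groups, 7 mRNAs and mt-Rnr2 changed (24.7% of all genes did): mt-Nd1, mt-Nd2, mt-Nd4, mt-Nd4l, mt-Nd5, mt-Nd6 and mt-Co3. Between 32 and 60 h no mRNA was called by edgeR (3.69% of all genes were), although 4148 genes had an unadjusted p under 0.05, and DESeq2 called 2. Single libraries weigh on these counts. Without uninjured library 1 they were 1, 1, 1 and 0 at 0.5, 16, 32 and 60 h, and without uninjured library 2 they were 4, 10, 5 and 3. Without 16 h library 1 the count was 1 and without library 2 it was 4; for 32 h these were 1 and 2, for 0.5 h 2 and 3, for 8 h 1 and 1, and for 60 h 0 and 0. At 8 h it was 1 without uninjured library 1 and 3 without library 2. At 1, 2 and 4 h it was 0 without uninjured library 1, 1, 2 and 1 without uninjured library 2, and 0 or 1 without either library of the time. Of the 7 that changed over all groups, 2 were left without uninjured library 1 or any 1 library of 16 or 60 h, 3 without any 1 of 8 h or 32 h library 1, and 4 without 32 h library 2.

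Complex I, which has 7 of the 13 mRNAs, carried most of these calls. Its mt-Nd5 was called at all 7 times from 0.5 to 32 h. It was at 3778 and 2421 CPM in the uninjured libraries, and after injury at 750.1 and 631 (0.5 h), 1187 and 1014 (1 h), 966 and 1028 (2 h), 1169 and 953 (4 h), 839 and 767 (8 h), 612 and 871 (16 h), 736 and 905 (32 h) and 1553 and 1973 CPM (60 h). Every library from 0.5 to 32 h was below both uninjured libraries and both libraries of 60 h. The fall was 2.17 ± 0.32 on the log2 scale at 0.5 h (adjusted p = 0.00326) and 2.06 ± 0.32 at 16 h (adjusted p = 0.00174). At 60 h it was not called (-0.81 ± 0.31, adjusted p = 0.0663). Its calls at 0.5, 8, 16 and 32 h were kept when any 1 library of the groups compared was left out, and those at 1, 2 and 4 h in 2 of 4 such cases. At 0.5 h it lost its call when the fit held only the 4 libraries compared, where the highest adjusted p was 0.126.

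The other complex I genes changed less evenly. mt-Nd1 was called at the same 7 times. It was at 7558 and 4672 CPM in uninjured cells, fell by 1.49 ± 0.28 at 0.5 h (adjusted p = 0.00825) to 1896 and 2445 CPM, and stood at 4604 and 5152 CPM at 60 h, where 1 library lay inside the uninjured range. mt-Nd4l, at 323 and 217 CPM before injury and 73.3 and 83.7 CPM at 0.5 h, was called at 0.5, 2, 4, 8, 16 and 32 h. mt-Nd3, mt-Nd4 and mt-Nd6 were called at 0.5 and 16 h, and mt-Nd4 and mt-Nd6 also at 32 and 60 h. mt-Nd6, the only mRNA of the minus strand, fell by 1.52 ± 0.38 at 16 h (adjusted p = 0.0146). mt-Nd2 was called at 16 h only, and at 1 and 4 h its log2 fold change was 0.27 and 0.13, with groups that overlapped. The 3 complex IV genes had no call from 0.5 to 8 h. mt-Co3 then fell at 16, 32 and 60 h, mt-Co2 at 16 h and mt-Co1 at 32 h. Of the ATP synthase genes, mt-Atp8 was called at 0.5, 8, 16 and 32 h and mt-Atp6 at 0.5, 16 and 32 h. mt-Cytb of complex III was at 4817 and 3729 CPM in uninjured cells and 2252 and 2046 CPM at 60 h. It fell by 0.99 ± 0.25 at 60 h (adjusted p = 0.0122), and was called at 0.5 and 32 h too.

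**Figure D4:**
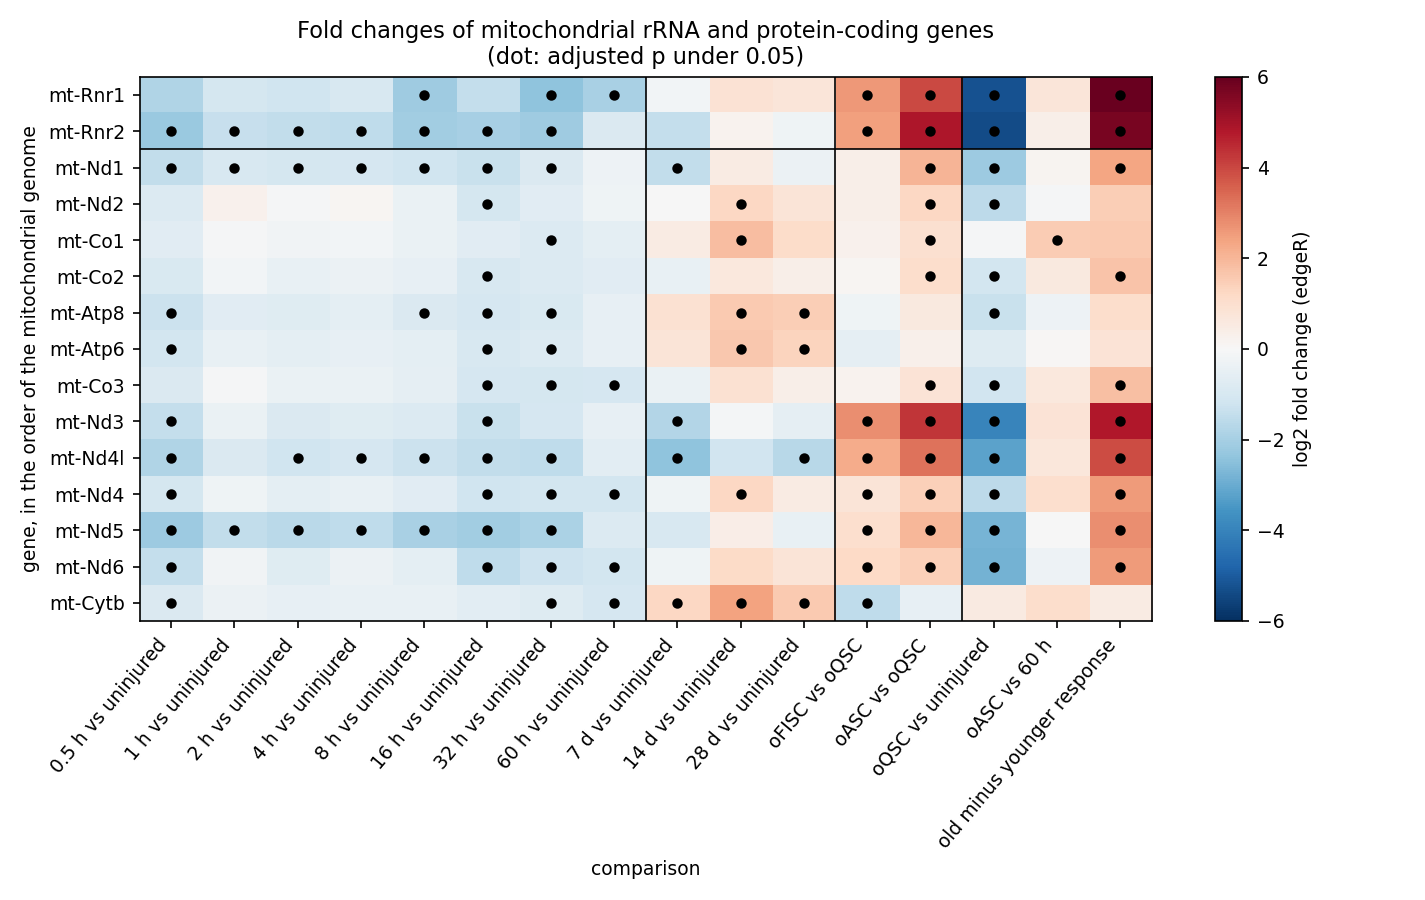
Log2 fold changes (edgeR) of the 2 rRNA and 13 protein-coding members, in the order of the genome, in 16 comparisons, with a dot where the adjusted p was under 0.05. Values to 60 h are negative for the 13 protein-coding members except mt-Nd2 at 1 and 4 h, mt-Cytb is positive from 7 to 28 days, and the old cells show their largest values for the rRNAs, mt-Nd3 and mt-Nd4l.

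In regenerating muscle some mRNAs were above and others below the uninjured level. These comparisons cross 2 tables, and a difference between the tables cannot be told apart from one between the times; levels are CPM on the scale of all 30 libraries. mt-Cytb was at 4722 and 3694 CPM in uninjured cells, 10998 and 8708 CPM at 7 days, 29248 and 15545 CPM at 14 days and 17879 and 7308 CPM at 28 days. All 6 later libraries were above both uninjured ones. It rose by 1.23 ± 0.38 at 7 days (adjusted p = 0.0426), 2.41 ± 0.40 at 14 days (adjusted p = 0.000636) and 1.58 ± 0.39 at 28 days (adjusted p = 0.0175). The rise at 14 days was called under all 10 alternatives, whereas that at 7 days was lost without any 1 of the 4 libraries compared and with other scalings (adjusted p = 0.0892 with RLE size factors). That at 28 days was lost without 28 day library 1 or either uninjured library. mt-Nd4l, in contrast, was at 317 and 215 CPM in uninjured cells and 47.8 and 52.9 CPM at 7 days. It fell by 2.40 ± 0.41 (log2) there (adjusted p = 0.000595), and was called under all 10 alternatives. At 14 days its libraries were at 66.3 and 173 CPM and it was not called (adjusted p = 0.0553), and at 28 days, at 113 and 56.1 CPM, it fell by 1.65 ± 0.40 (adjusted p = 0.0151). Its nuclear copy Gm10222 held a smaller ratio to it at 7 and 28 days than in uninjured cells. The part of this was not tested.

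At 7 days 4 of the 13 mRNAs were called (11.2% of all genes were, 5.84% higher and 5.35% lower): mt-Nd1, mt-Nd3 and mt-Nd4l were lower and mt-Cytb higher. mt-Nd1 was at 2387 and 1941 CPM against 7409 and 4629 CPM and mt-Nd3 at 47.8 and 43.9 CPM against 194 and 118 CPM, without overlap. At 14 days 6 were called higher (6.51% of all genes were), namely mt-Nd2, mt-Nd4, mt-Co1, mt-Atp6, mt-Atp8 and mt-Cytb. The largest after mt-Cytb was mt-Co1, at 15887 and 16855 CPM against 4935 and 4074 CPM, a rise of 1.86 ± 0.36 (adjusted p = 0.00181). At 28 days the ATP synthase genes mt-Atp6 and mt-Atp8 were called higher with mt-Cytb, and mt-Nd4l lower (6.49% of all genes were called, 2.29% higher and 4.20% lower). mt-Atp6 was at 13215 and 5246 CPM, with library 1 far above library 2, and at 4205 and 3149 CPM in uninjured cells. Its copy Gm10925 held a smaller ratio to it at 28 days than in uninjured cells, and the part of this was not tested. The median log2 fold change of the 13 was -0.27, 1.13 and 0.49 at 7, 14 and 28 days, and 0 over all genes tested at each. Neither rRNA was called at these times. mt-Rnr2 was at 42366 and 47623 CPM at 14 days and 47287 and 17722 CPM at 28 days, against 48228 and 29878 CPM in uninjured cells, so that both 14 day libraries and 28 day library 1 lay inside the uninjured range. At 7 days it was at 19116 and 10227 CPM, and these libraries and 28 day library 2 lay below that range. Without 1 library at a time the counts were 1 (7 day library 2 or uninjured library 1), 2 (7 day library 1) and 3 (uninjured library 2) for 7 days. For 14 days they were 2 without 14 day library 1 or either uninjured library and 5 without 14 day library 2. For 28 days they were 0 without uninjured library 1, 1 without uninjured library 2 or 28 day library 1, and 4 without 28 day library 2. 28 day library 1 is also the one with the higher share of satellite repeat models, and the part of these was not tested.

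Within the regeneration table, which removes the difference between tables, edgeR called none of the 13 mRNAs or the rRNAs at 14 or 28 days against 7 days. Few genes of any kind were called there (0.0531% and 0.295%), and 2130 and 2356 genes had an unadjusted p under 0.05. DESeq2 called 4 and 1 of the 13. All 13 log2 fold changes were above 0 at both times, with medians of 1.26 and 0.89. mt-Nd1 had the highest at 14 days (1.94 ± 0.59, adjusted p = 0.347), from 2944 and 2339.5 CPM at 7 days to 6595 and 13668 CPM, on the scale of this table's 6 libraries. The groups did not overlap for mt-Nd1, but the 14 day libraries lay further apart than the 7 day ones.

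In CPM, mitochondrial rRNA and complex I mRNA were far higher in old cells taken after injury than in old uninjured cells. Both groups come from 1 table, and levels are CPM on the scale of its 6 libraries. mt-Rnr2 was at 868 and 772 CPM in oQSC, 3458 and 5474 CPM in oFISC and 21149 and 25976 CPM in oASC cells. mt-Rnr1 was at 63.2 and 55, 323 and 390.4 and 874 and 995 CPM in the same order. For both rRNAs the 3 groups were fully apart, with oFISC between the others. Between oQSC and oASC cells the log2 rise of mt-Rnr2 was 4.84 ± 0.40 (adjusted p = 4.18e-05) and that of mt-Rnr1 3.98 ± 0.24 (adjusted p = 1.19e-05). In oFISC against oQSC cells the rises were 2.45 ± 0.36 and 2.59 ± 0.23. Nuclear rRNA models rose in share over the same groups, as given above, and their part was not tested. The stated molecule was polyadenylated RNA, and how far rRNA was captured in each library was not tested.

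Among the mRNAs, mt-Nd3 was at 8.35 and 8.88 CPM in oQSC, 53.2 and 66 CPM in oFISC and 152 and 187 CPM in oASC cells. It rose by 4.29 ± 0.24 in oASC (adjusted p = 8.72e-06) and 2.79 ± 0.22 in oFISC cells (adjusted p = 9.89e-05), the largest fold changes of the 13 mRNAs in both comparisons. Its nuclear copy, printed above with it, differs at 1 base, so reads of the copy cannot be parted from it elsewhere. mt-Nd4l, also copied in the nucleus, rose by 3.26 ± 0.26 in oASC cells. mt-Nd1, mt-Nd5 and mt-Nd6 matched no close nuclear model. mt-Nd1 was at 1185 and 1102 CPM in oQSC and 4388 and 4972 CPM in oASC cells, a rise of 2.03 ± 0.29 (adjusted p = 0.000762). mt-Nd5 rose by 1.99 ± 0.28 (adjusted p = 0.000641), from 407 and 345 to 1416 and 1565 CPM. All 7 complex I genes and all 3 complex IV genes rose in oASC cells, 10 of 13 mRNAs in all, where 19.0% of all genes were called higher. The 7 complex I calls were kept when any 1 library was left out. mt-Co1, whose partial copy held a smaller ratio in oASC than in oQSC cells, and mt-Co3 lost theirs without any 1 of the 4 libraries, and mt-Co2 in 2 of 4 cases. mt-Atp6, mt-Atp8 and mt-Cytb were not called (adjusted p = 0.395, 0.0942 and 0.224). The median log2 fold change was 1.99 for complex I, 0.98 for complex IV and 0.44 for ATP synthase genes, and -0.33 over all genes tested.

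In oFISC cells 6 of the 13 mRNAs were called (41.9% of all genes were), 5 higher (19.3%) and 1 lower (22.6%). The 5 are complex I genes, mt-Nd3, mt-Nd4l, mt-Nd4, mt-Nd5 and mt-Nd6. The 1 that fell is mt-Cytb, at 6111 and 4483 CPM in oQSC and 1504 and 2199.7 CPM in oFISC cells, a fall of 1.52 ± 0.31 (adjusted p = 0.00592) that was kept under all 10 alternatives. mt-Nd1, mt-Nd2 and the complex IV genes were not called, and for mt-Nd1, mt-Co1, mt-Co2, mt-Co3 and mt-Atp8 the groups overlapped. The count was 4 without either oQSC library and 7 without either oFISC library. Satellite repeat models, at 61.3 and 26.6% of the oFISC counts, set these libraries apart from each other.

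In uninjured muscle, both rRNAs and most mRNAs were lower in old than in younger cells. The comparison crosses tables, so age and table cannot be told apart, and Myod1 and Pax7 differed between these groups as given above. On the scale of all 30 libraries mt-Rnr2 was at 997 and 912 CPM in oQSC and 48228 and 29878 CPM in uninjured younger cells, a log2 fall of 5.35 ± 0.57 (adjusted p = 2.27e-06). mt-Nd3 fell by 3.96 ± 0.42 (adjusted p = 2.18e-06), from 194 and 118 to 9.59 and 10.5 CPM. mt-Nd6 fell by 2.84 ± 0.44 and mt-Nd5 by 2.80 ± 0.41. Of the 13 mRNAs 10 were called lower (9.31% of all genes were), among them all 7 of complex I. mt-Co1, at 4713 and 3998 CPM against 4935 and 4074 CPM, was not called (adjusted p = 0.961), nor was mt-Cytb, at 7021 and 5296 CPM against 4722 and 3694 CPM (0.55 ± 0.38, adjusted p = 0.29), or mt-Atp6 (adjusted p = 0.148). The median of the 13 was -1.55, against 0.49 over all genes tested. The count of 10 became 5 without uninjured library 1 or oQSC library 2, and stayed at 7 or above in the other cases.

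After injury few members passed the test between old and younger cells. oASC cells (2.5 days) and younger cells at 60 h differed in 1 of the 13 mRNAs (2.20% of all genes were called). mt-Co1 was higher in oASC cells, at 8390.1 and 8897 CPM against 3009.9 and 3059.9 CPM (1.51 ± 0.35, adjusted p = 0.0244), and lost its call when any 1 library was left out, leaving 0. Gm29216, its partial copy, was at 0.141 and 0.16 per count on mt-Co1 in oASC and 0.255 and 0.24 at 60 h. The fit of only the 4 libraries compared called 9 of 13. mt-Nd5, at 1653 and 1841 CPM and 1539.5 and 1956 CPM, and mt-Nd1, at 5121 and 5849 CPM and 4563 and 5107 CPM, were not called (adjusted p = 1 and 0.889).

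The injury response itself, oASC minus oQSC against 60 h minus uninjured, differed between old and younger cells for both rRNAs and 8 of the 13 mRNAs, all toward a higher response in old cells (3.29% of all genes were called in that direction). The difference was 5.92 ± 0.83 for mt-Rnr1 (adjusted p = 0.000323), 5.71 ± 0.72 for mt-Rnr2 (adjusted p = 0.000138) and 4.80 ± 0.56 for mt-Nd3 (adjusted p = 8.44e-05), in log2 units. It was called for 6 of the 7 complex I genes (all but mt-Nd2) and for mt-Co2 and mt-Co3, but not for mt-Cytb (0.50 ± 0.54) or the ATP synthase genes. The calls of mt-Rnr1, mt-Rnr2, mt-Nd3, mt-Nd4l, mt-Nd4 and mt-Nd5 held in all 14 alternatives run for them. Those of mt-Nd1, mt-Nd6, mt-Co2 and mt-Co3 did not. The count was 4 without either 60 h library, either oQSC library, oASC library 2 or uninjured library 1, and 6 without oASC library 1 or uninjured library 2. All 4 groups enter this difference, so the low oQSC values described above are part of it. For both rRNAs and the 8 mRNAs, mean CPM differed by a larger factor between oQSC and uninjured cells than between oASC cells and 60 h. On the scale of all 30 libraries, mean mt-Rnr2 was 955 CPM in oQSC and 39053 CPM in uninjured cells. It was 27620 CPM in oASC cells and 21566 CPM at 60 h. For mt-Nd4 the factors lay closer together, with 675 CPM in oQSC, 1978 in uninjured, 1840 in oASC and 922 CPM at 60 h.

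The tRNA genes held little of the signal, at 0.00629 to 0.0706% of the counts of a library. Of their counts, 81.8% lay on the 8 minus-strand genes, opposite to the mRNAs other than mt-Nd6. Most of these lay on mt-Ts1, with 60.1% of all tRNA counts. Its reads cannot be told from reads that run past mt-Co1, as given above. It also lies between mt-Co1 and mt-Co2, both of which have a copy on chromosome 1. The stretch between these copies, Gm28661 (end 24615565) and Gm29216 (start 24615706), was not searched, so a copy of mt-Ts1 there was not tested. mt-Ts1, mt-Te (between mt-Nd6 and mt-Cytb), mt-Tl1 and mt-Tp held the most. Polyadenylated RNA was the stated molecule, and mature tRNAs are not polyadenylated. Of 21 tested in the time course, 2 were called lower at 0.5 h (3.42% of all genes were), 2 lower at 8 h (14.0%), 1 (mt-Ts1) lower at 16 h (8.50%) and 5 higher at 60 h (15.5%), and none at 1, 2, 4 or 32 h. The share at 8 h is thus below that of all genes. mt-Tl1, the leucine tRNA that sits between mt-Rnr2 and mt-Nd1, was at 4.87 and 2.96 CPM in uninjured cells, then 7.05 and 7.56 (32 h) and 15.7 and 23.2 CPM (60 h). It rose by 2.32 ± 0.47 at 60 h (adjusted p = 0.00357), when mt-Nd1 beside it was at 4604 and 5152 CPM against 7558 and 4672 CPM. In the old cells mt-Tl1 was at 1.63 and 1.06 CPM in oQSC, 5.22 and 8.52 CPM in oFISC and 37.3 and 32.3 CPM in oASC, a rise of 4.70 ± 0.35 in oASC cells (adjusted p = 2.87e-05). Of 22 tested there, 17 were called higher in oASC (19.0% of all genes were) and 13 in oFISC cells (19.3%), and none lower. At 14 days 7 (6.51%) and at 28 days 4 (2.29%) were called higher than in uninjured cells, and 6 were lower in oQSC than in uninjured cells (9.31%). mt-Ts1 per 1000 counts on mt-Co1, which adjoins it, stayed between 10.2 (oASC) and 30.2 (28 days) in all libraries.

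Nuclear and mitochondrial genes of the same complexes were called in opposite directions in several comparisons. At 60 h, when no mitochondrial mRNA was called higher, 21 of 36 nuclear complex I subunit genes, 7 of 9 of complex III, 9 of 11 of complex IV and 11 of 15 of ATP synthase were called higher than in uninjured cells (15.5% of all genes were), and none lower. The median log2 fold change was 1.26 for the nuclear and -0.64 for the 7 mitochondrial complex I genes, and 0.00 over all genes tested. In oFISC against oQSC cells the contrast had the other sign for complex I, but not for every complex. All 36 nuclear complex I, 9 complex III, 11 complex IV and 15 ATP synthase genes were called lower (22.6% of all genes were), with medians of -2.49, -2.14, -1.86 and -1.95, while the 7 mitochondrial complex I genes had a median of 1.00 and all genes 0.52. mt-Cytb of complex III fell too, as given above, and the ATP synthase genes, which were not called, had values below 0 (-0.52 for mt-Atp6 and -0.24 for mt-Atp8), like the nuclear genes. In oQSC against uninjured cells 16 of 36 nuclear complex I genes were called higher and none lower (median 0.97; 12.3% of all genes were higher), where all 7 mitochondrial ones were lower (median -2.80). At 14 days 29 of 36 nuclear complex I genes were called higher (median 1.70; 6.51% of all genes were higher), and 2 of the 7 mitochondrial ones, mt-Nd2 and mt-Nd4 (median 0.51). In oASC against oQSC cells 11 were called higher and 5 lower of 36 (median 0.31), where 19.0% of all genes were called higher and 21.3% lower. The difference between nuclear and mitochondrial genes was not itself tested.

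Nuclear genes that act on mitochondrial RNA were counted from lists of transcription and replication factors, of RNA processing and translation factors, and of regulators of mitochondrial biogenesis. At 16 h, when 11 mitochondrial mRNAs were lower, the first list had 10 of 17 higher and 0 lower (median log2 fold change 1.59), and the second 16 of 33 higher and 1 lower (median log2 fold change 1.38), where 14.2% of all genes were called higher. Tfam, which packs mitochondrial DNA and starts its transcription, rose by 2.81 ± 0.72 on the log2 scale, Mterf3, a repressor of mitochondrial transcription, by 2.32 ± 0.36, and Polg, the mitochondrial DNA polymerase, by 1.57 ± 0.40. Pnpt1, an RNA-degrading enzyme of mitochondria, rose by 2.92 ± 0.38, and Gfm1, a mitochondrial elongation factor, by 3.54 ± 0.52. At 60 h Pnpt1 rose by 3.39 ± 0.39, Gfm1 by 4.30 ± 0.53 and Ssbp1, which binds single-stranded mitochondrial DNA, by 1.43 ± 0.34. In oASC against oQSC cells, where the mitochondrial RNAs rose, Polrmt, the RNA polymerase that makes them, rose by 3.65 ± 0.21 (adjusted p = 9.42e-06), Twnk, the mitochondrial helicase, by 2.38 ± 0.26, and Elac2, which trims tRNA ends, by 2.68 ± 0.25. The first list had 6 of 17 higher and 2 lower (median log2 fold change 0.35) there, and the second 22 of 34 higher and 7 lower (median log2 fold change 1.42), against 19.0% of all genes higher and 21.3% lower. In oFISC cells the second list had 2 of 34 higher and 22 lower (median log2 fold change -1.08), against 19.3% and 22.6% of all genes. Hsd17b10, a subunit of the enzyme that cuts tRNA 5′ ends, fell by 4.02 ± 0.28 there. The injury response of Polrmt was higher in old than in younger cells by 2.66 ± 0.56 (adjusted p = 0.00575). Of the regulators, 4 of 18 were called higher and 6 lower in oASC against oQSC cells (median log2 fold change -0.51). Of all genes, 19.0% were called higher and 21.3% lower, so the share of higher calls was near that of all genes. Esrra and Ppargc1b, among the 4 higher ones, rose by 3.87 ± 0.38 and 3.79 ± 0.31. The 6 lower ones are not named here.

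The early groups allow a further description, because their 2 libraries lay far apart in Myod1. At 0.5 h Myod1 was at 119 and 1508 CPM in libraries 1 and 2, at 1 h at 162 and 1789 CPM, at 2 h at 1881 and 82.7 CPM and at 4 h at 88.3 and 2164 CPM. In all 4 groups the library with more Myod1 had fewer rRNA counts per mRNA count, with 0.535 against 0.851 (0.5 h), 0.712 against 0.802 (1 h), 0.76 against 0.852 (2 h) and 0.552 against 0.954 (4 h). It also had the higher share of mt-Nd6 among the 13 mRNAs in all 4 groups. In these groups it held the smaller share of nuclear rRNA models too, and the part of this in the ratio was not tested. That share was 3.83 against 7.89% (0.5 h), 5.73 against 9.81% (1 h), 6.06 against 6.65% (2 h) and 5.15 against 7.49% (4 h). Over all 15 groups the library with more Myod1 had the lower ratio in 11 and the higher mt-Nd6 share in 7. At 14 days, with Myod1 at 27.6 and 222 CPM, the library with more of it had the higher ratio, 0.684 against 0.588. With 1 library on each side this has no replicate and was not tested.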

How the data were processed

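RNA of fixed satellite cells was amplified with SMART-Seq v4 and sequenced as paired-end reads, per the labels' protocols. The authors deposited raw read counts per gene in 3 tables. Per the submitters' processing notes, Trimmomatic 0.36, HISAT2 2.1.0, SAMtools 1.3 and StringTie 1.3.3 were used with mm10. Which counter, strand setting, annotation release and treatment of reads with several hits applied is not given in the sources used here.

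Models over all genes were made in edgeR 4.0.16 under R 4.3.3 (TMM scaling, filterByExpr with a minimum count of 10, quasi-likelihood F test, Benjamini-Hochberg adjusted p under 0.05), on the time course, the regeneration table, the old cells, or all 30 libraries for comparisons across tables. These fits tested 22479, 16954, 30099 and 28823 genes. The SE is the log2 fold change over the square root of F. The fits were also run on data simulated from their own estimated spread. Such data hold no difference between tables or in library make-up, so the effect of these was not tested. DESeq2 1.42.0 and other settings served as alternatives. Samples were grouped by their titles and labels.

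The members and gene lists were chosen with earlier results of these data known. CT010467.1 was added to the models that overlap nuclear rRNA after its counts were seen. All protein-coding and rRNA members are named. Of the tRNAs, the 4 with the most counts are named, and others singled out were chosen after their values were seen. Of the lists of nuclear genes, up to 4 called genes with the smallest adjusted p per comparison are named. Sequences and positions are from GENCODE M21 on GRCm38.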

Additional observations from a re-analysis of the deposited data

Results flagged for a closer look

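The injury response (oASC minus oQSC in old cells, 60 h minus uninjured in younger cells) differed between the ages for 11 members. This was by edgeR's test of the difference itself, and the response, not the level, was higher in old cells each time. In log2 units the difference was 5.92 for mt-Rnr1 and 5.71 for mt-Rnr2. For complex I it was 4.80 for mt-Nd3, 3.90 for mt-Nd4l, 2.80 for mt-Nd5, 2.55 for mt-Nd4, 2.54 for mt-Nd6 and 2.36 for mt-Nd1. For complex IV it was 1.81 for mt-Co3 and 1.72 for mt-Co2, and for the tRNA mt-Ts2 it was 4.35. The value of mt-Ts2 rests on few counts, from 0 to 88 in a library. The old and younger cells come from different tables, so age and table cannot be told apart. The low levels in oQSC cells, which were also low in Pax7 and high in Myod1, enter each difference. For the rRNAs and mRNAs listed, mean CPM differed by a larger factor between oQSC and uninjured cells than between oASC cells and 60 h. Between oASC cells and younger cells at 60 h, mt-Co1 was the only mRNA called.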

How the results depend on the processing

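No called fold change of the 13 mRNAs and 2 rRNAs reversed under an alternative. The tRNAs were not rerun. Of 1170 repeats of 113 called fold changes, 826 stayed past the threshold and 344 did not. DESeq2 kept 113 of 113, whereas leaving out 1 library kept 234 of 492. The counts below are of the 13 mRNAs called against uninjured cells unless stated. Without the filter on low counts they were 4 at 0.5 h, 1 at 1 h, 1 at 2 h, 1 at 4 h, 2 at 8 h, 6 at 16 h, 2 at 32 h, 0 at 60 h. That fit gave 4 for any change over time and 1 for 14 against 7 days. With only the groups compared in the fit they were 0 at 0.5 h, 0 at 1 h, 0 at 2 h, 0 at 4 h, 9 at 8 h, 6 at 32 h, 10 at 60 h, 2 at 7 days, 1 at 14 days, 0 at 28 days, and 9 for oASC against 60 h. DESeq2 called 4 at 1 h, 8 at 2 h, 6 at 4 h, 11 at 8 h, 10 at 60 h, 2 for 60 against 32 h, 13 for any change, 4 and 1 for 14 and 28 against 7 days, and 10 for oFISC against oQSC. RLE size factors gave 0 for oASC against 60 h, and scaling without mitochondrial, rRNA and satellite models 1 at 1 h. RLE scaling moved the median of all genes by over 0.1 at 2, 4, 16 and 32 h. It did so too for oFISC against oQSC, oQSC against uninjured and oASC against 60 h. The largest moves were from 0.25 to 0.01 at 32 h and from 0.52 to 0.81 in oFISC against oQSC. The cause of these differences was not tested.

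Leaving out 1 library at a time gave 1 to 4 at 0.5 h, 0 to 1 at 1 h, 0 to 2 at 2 h, 0 to 1 at 4 h, 1 to 3 at 8 h, 1 to 10 at 16 h, 1 to 5 at 32 h, 0 to 3 at 60 h, 1 to 3 at 7 days, 2 to 5 at 14 days, 0 to 4 at 28 days, 2 to 7 for any change, 4 to 7 for oFISC and 7 to 8 for oASC against oQSC, 5 to 9 for oQSC against uninjured, 0 to 0 for oASC against 60 h and 4 to 6 for the difference in response. A group then has 1 library, which is assumed to vary like the other groups.

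A replicate block gave 1 at 1 h, 1 at 4 h, 6 at 32 h and 4 for any change. Samples with the same number did not deviate together throughout: over 36 pairs of the time course the correlation ran from -0.67 to 0.61 with a median of -0.01 and 6 pairs over 0.1, and was at most 0.04 in the other tables, so the numbers are not taken to pair the samples.

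With the nuclear copies added, the mean share of counts on the 13 genes was 3.45% in uninjured, 2.06% at 0.5 h, 3.03% at 1 h, 2.61% at 2 h, 2.88% at 4 h, 2.19% at 8 h, 2.06% at 16 h, 2.31% at 32 h, 2.11% at 60 h, 6.14% at 7 days, 11% at 14 days, 1.56% in oQSC and 3.31% in oASC. Without rRNA and satellite models in the total it was 4.45% in uninjured, 1.69% at 8 h, 2.23% at 60 h, 1.51% in oQSC, 3.03% in oFISC and 3.01% in oASC. With 2 libraries a group, small differences were not detectable.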
